A study of Camelus dromedarius with 4 samples.

Results

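The genes described here encode the nuclear subunits of the mitochondrial respiratory chain, measured in the supraoptic nucleus of the dromedary camel (Camelus dromedarius) in winter and in summer. They were taken by symbol from the deposited table of season means: every symbol beginning with NDUF, UQCR or ATP5, every symbol beginning with COX followed by a digit from 4 to 8, and SDHA, SDHB, SDHC and SDHD. The table listed 90 such symbols, of which 83 carried a mean for both seasons, out of 16053 symbols with both means. The 7 without means were COX6A2, COX6B2, COX7B2, NDUFA5, NDUFA8, NDUFB4 and NDUFC1. The 83 comprised 32 subunits of complex I (7 core and 25 accessory), 4 of complex II, 7 of complex III, 16 of complex IV and 15 of complex V. The remaining 9, NDUFAF1 to NDUFAF7, ATP5S and ATP5SL, are assembly or associated factors rather than subunits, and they are given separately. NDUFA4 and its relative NDUFA4L2 carry a complex I name but were counted with complex IV, where the NDUFA4 protein is now placed.

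The respiratory chain sits in the inner mitochondrial membrane. Complex I (NADH dehydrogenase) and complex II (succinate dehydrogenase) feed electrons to ubiquinone, complex III (the cytochrome bc1 complex) passes them to cytochrome c, and complex IV (cytochrome c oxidase) passes them to oxygen. Complexes I, III and IV pump protons, and complex V (ATP synthase) uses the resulting gradient to make ATP. Except in complex II, the nuclear genes listed here supply only some of the subunits, since a few central ones are encoded by the mitochondrial genome. Neurons depend heavily on this pathway to restore ion gradients, and the magnocellular neurons of the supraoptic nucleus also make and secrete large amounts of the peptide hormones vasopressin and oxytocin.

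The series holds 4 bulk RNA-seq libraries of supraoptic nucleus, 2 from winter (labelled replicates 2 and 3) and 2 from summer (replicates 1 and 2), made from stranded total RNA after ribosomal RNA depletion. The animals were untreated, age-matched adult male camels of the Tergui breed, which the paper describes as fully hydrated in both seasons. They were slaughtered for meat in January at El Oued or in June at Ouargla, so season, place and date cannot be told apart. The methods of the study give 2 tissues per season, and p-values measure the spread between these libraries only. Between 4379162 and 6902037 reads per library fell on gene models, 20.7% to 27.8% of the tallied alignments.

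The label of the tissue was checked against marker genes. The vasopressin transcript, listed as PUTATIVE_AVP, had an authors' mean of 11822 normalised reads in summer and 2560 in winter, and OXT (oxytocin) had 592 and 621. Markers of several cell types differed between the seasons, and none of the markers with means was at 0 in either season. Of the 8 neuronal markers with a mean of at least 10, out of 10 listed, 7 had the higher mean in winter, and their summed mean was 5399 in summer and 7127 in winter. Of the 6 listed magnocellular markers, 4 had means under the listed symbol (CARTPT, OXT, PDYN and SCG2), and these summed to 1276 in summer and 1862 in winter. This sum leaves out the vasopressin transcript, whose means, given above, were larger than the sum and lower in winter. The 4 did not move together: SCG2 had 554 and 1195, while PDYN had 127 and 35.9. The 8 astrocyte markers summed to 37953 in summer and 23059 in winter, with GFAP alone at 25074 and 14423, while 4 of the 8 (ALDH1L1, SLC1A2, SLC1A3 and SOX9) had the higher mean in winter. The 9 oligodendrocyte markers summed to 33998 and 37874, with 8 higher in winter and 1 lower. The 7 of 8 microglial markers with means summed to 7802 and 5686, with 6 lower in winter and CSF1R higher, at 56.2 and 106. The 6 endothelial markers summed to 1536 and 1440, with 2 higher in winter and 4 lower. The 6 of 8 striated muscle markers with means summed to 108 in summer and 146 in winter. Of the 3 muscle markers with a mean of at least 10, 2 were higher in winter and 1 lower, with MYH7 at 40.7 and 91.1 and MYH2 at 25.6 and 8.15. The 3 of 5 blood markers with means summed to 340 and 303, with 1 higher in winter and 2 lower. The part of these differences in the values of the respiratory chain was not tested, and in bulk tissue fewer cells of a type and less RNA per cell cannot be told apart.

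A season mean is the authors' mean of read counts divided by a size factor for each library, and is printed without an error because the table holds 1 value per season. Members were compared where the mean reached 10 in at least 1 season, which 78 of the 83 did. Each value below is on this linear scale of normalised reads, and the difference between seasons is given as the log2 of winter over summer means. Transcript lengths were not used, so levels are compared between seasons and not between genes.

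Most respiratory chain transcripts were at similar means in both seasons. The median log2 ratio over the 78 members was -0.11, with an interquartile range from -0.32 to 0.14. Over all 13808 symbols that passed the same filter the median was -0.04, with an interquartile range from -0.31 to 0.26. The winter mean was the higher one for 31 members and the lower one for 47, or 60.3%, against 53.8% lower in winter over all symbols. Of the members, 91.0% lay within 1.5-fold, against 77.7% of all symbols. Among transcripts whose higher mean was 50 or more, the shares were 94.0% of 67 members and 85.4% of all symbols.

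Past 1.5-fold, 1 member was higher in winter, where 10.1% of all symbols were, and 6 were lower in winter, where 12.2% of all symbols were. The higher one was NDUFS7, a core subunit of complex I that carries an iron-sulphur cluster. The lower ones were SDHD, NDUFA2, NDUFV2, NDUFB5, NDUFAF1 and NDUFB9. SDHD was the only one of these past 2-fold, at a mean of 21.4 in summer and 9.14 in winter. Just inside the threshold lay NDUFS8 with 112 in summer and 168 in winter, COX4I1 with 962 and 647, and SDHC with 47.2 and 31.7. NDUFB9 lay just outside it, at 1.501-fold.

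**Figure D1:**
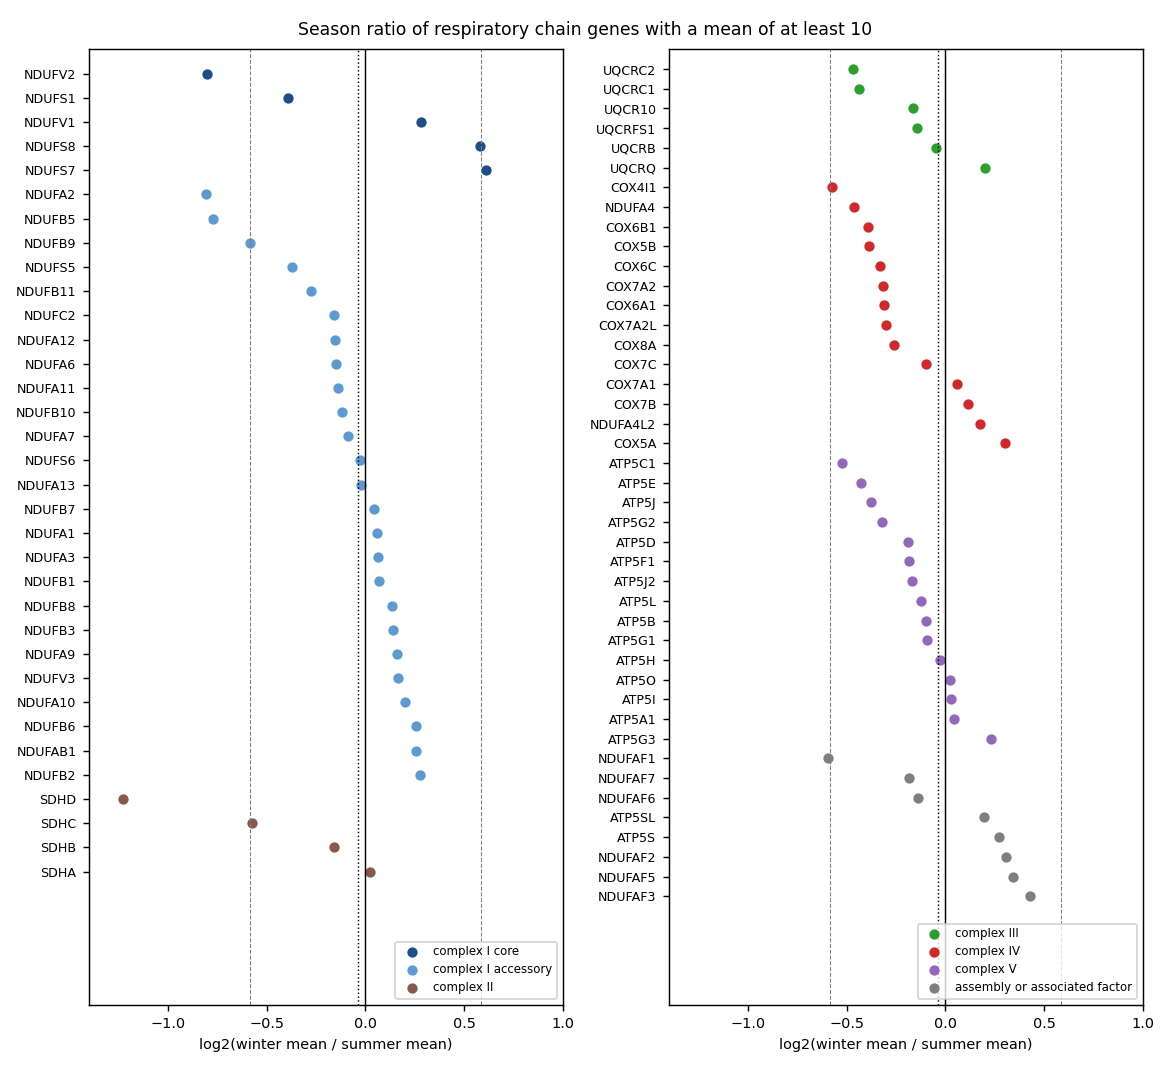
Each point is 1 of the genes compared and named here, coloured by complex or role, and the horizontal axis is log2(winter mean / summer mean) of normalised reads. The dashed lines mark 1.5-fold and the dotted line the median of all symbols. Most points lie between the dashed lines, with SDHD at -1.23 the lowest and NDUFS7 at 0.61 the highest.

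By season means, the complexes were placed differently, which is a description without a test. The counts of direction below stand beside the 53.8% of all symbols that had the lower mean in winter. For complex I, 16 of 31 subunits had the higher mean in winter, and the median log2 ratio was 0.05. For complex IV, 10 of 14 had the lower mean in winter, the median was -0.31, and the summed mean of these subunits was 3688 in summer and 2939 in winter. For complex V, 11 of 15 had the lower mean in winter, with a median of -0.12 and summed means of 5934 and 5518. Complex III had 5 of 6 lower with a median of -0.15, and complex II had 3 of 4 lower with a median of -0.37. The assembly and associated factors lay on the other side, with 5 of 8 higher in winter and a median of 0.23. Dividing the means by season totals, or centring on the median of all symbols, shifts every log2 ratio by a constant that is small beside most of these medians. None of their signs turned. The median of complex I, the smallest in size, was 0.02 with season totals and 0.08 with centring. The medians of the complexes were not computed with a library left out.

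The spread behind these means was read from the libraries. Because each season mean is the mean of 2 whole read counts, each divided by its own size factor, the 2 counts can be solved for where a single pair of whole numbers gives the printed mean. The solved counts show which library of a season had the larger size factor, called library A here, but not which replicate number it carries. The size factors were 0.922 for library A and 0.877 for library B in summer, and 1.33 and 0.946 in winter. A single pair existed in summer for 76 of the 83 members, in winter for 36, and in both seasons for 31 of the 78 compared, which are mostly those of lower mean. The other members were compared by their means, or by the winter mean against the summer libraries.

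The libraries of a season were not close to each other. The median difference between the libraries of a season was 1.47-fold in summer and 1.28-fold in winter for the members, and 1.57-fold and 1.36-fold for all 7625 resolved symbols with a mean above 0 in both seasons. The median level of the members also differed between libraries of a season. This level, in log2 relative to each gene's own mean over the libraries, had a median of 0.13 in winter library A and -0.20 in winter library B, and -0.10 in summer library A and 0.20 in summer library B. The pooled within-season standard deviation of these library medians was 0.23, so the seasons overlapped on this measure.

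**Figure D2:**
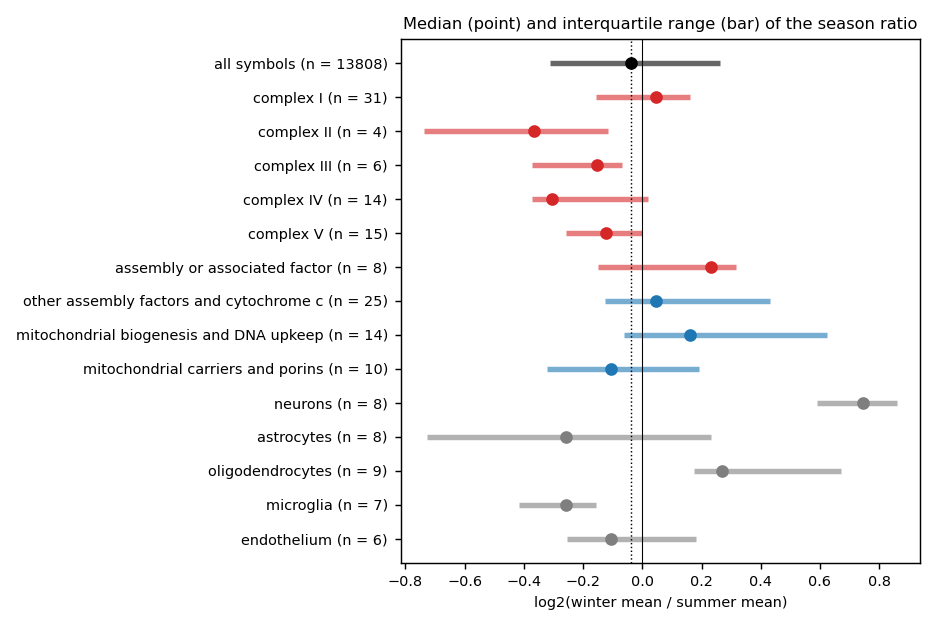
Median (point) and interquartile range (bar) of log2(winter mean / summer mean) for all symbols, each complex (red), the other mitochondrial lists (blue) and cell type markers (grey), with the number of genes beside each name and a dotted line at the median of all symbols. Complexes II and IV lie lowest among the complexes, at -0.37 and -0.31, and the neuronal markers highest of all lists drawn, at 0.74.

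The winter mean could be set against both summer libraries for 71 members. It lay below both for 26, between them for 31 and above both for 14. Over all 12154 symbols compared in this way, 24.8% had a winter mean below both summer libraries and 29.0% had one above both. For complex IV the winter mean was below both for 7 of 13 members (COX5B, COX6A1, COX6B1, COX6C, COX7A2, COX8A and NDUFA4) and above both for COX7B alone. Complex V had 7 of 12 below and 0 above, complex III 3 of 5 below and 1 above, and complex II 3 of 3 below. For complex I the counts were 5 below, 17 between and 8 above out of 30, and for the assembly factors 1, 3 and 4 out of 8. A mean of 2 libraries varies less than a single library, and this comparison sets a winter mean against single summer libraries, so its counts can be read only beside the shares of all symbols.

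**Figure D3:**
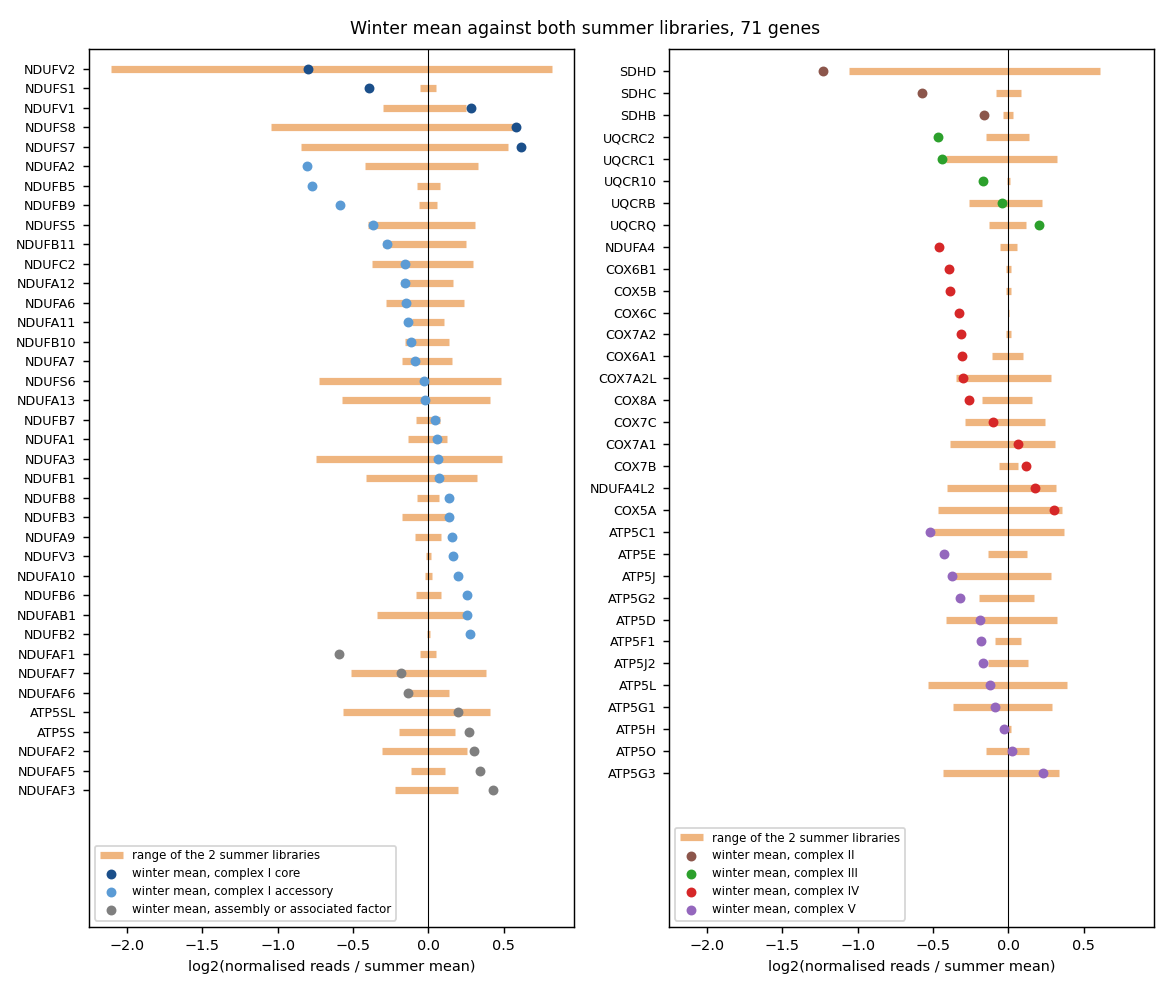
The horizontal axis is the log2 of normalised reads over the summer mean for 71 genes, the bar for each gene joins the 2 summer libraries, and the point is the winter mean, coloured by complex or role. COX5B has its summer libraries close together at 322 and 329 normalised reads and its winter mean at 249, outside the bar.

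Complex I is the entry point for electrons from NADH, and its core subunits bind the flavin and the iron-sulphur clusters. NDUFV1, the subunit that binds NADH and the flavin, had a mean of 324 in summer and 394 in winter. NDUFS1, the largest iron-sulphur subunit, had 367 in summer and 279 in winter, and its summer libraries were at 354 and 381 normalised reads. The 25 accessory subunits, which surround the core, had a median of -0.02, with 12 higher and 13 lower, and this median turned positive when centred on all symbols.

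NDUFS7 and NDUFS8, neighbouring iron-sulphur subunits on the path to ubiquinone, had the highest ratios of the complex. NDUFS8 was at 54.2 and 170 normalised reads in summer libraries A and B and at 211 and 124 in winter libraries A and B. The seasons overlapped, since winter library B lay below summer library B. The fitted log2 fold change was 0.59 with a standard error of 0.54 (unadjusted p = 0.312 and adjusted p = 0.982 by edgeR's quasi-likelihood test with Benjamini-Hochberg adjustment). Without summer library A it was -0.02 and without summer library B it was 1.63. NDUFS7 was at 70.5 and 182 in the summer libraries, with a winter mean of 193 that allowed 3 pairs of counts, and it was not fitted. With each of these 3 pairs the seasons overlapped. Summer library A was the lower of the summer libraries for both genes.

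NDUFV2, another core subunit with an iron-sulphur cluster, rested on few reads, with 24 and 3 in summer libraries A and B and 14 and 6 in winter libraries A and B. Its log2 fold change of -0.77 had a standard error of 1.01, and without summer library A it was 1.31. NDUFS3, a core subunit that did not reach a mean of 10, had means of 5.05 in summer and 6.19 in winter.

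NDUFB5, an accessory subunit of the membrane arm, had the smallest unadjusted p of the 31 fitted members. Summer libraries A and B were at 92.2 and 102.6 normalised reads, from 85 and 90 reads, and winter libraries A and B at 53.6 and 60.3, from 71 and 57 reads. Both summer values lay above both winter values. The log2 fold change was -0.78 with a standard error of 0.36, and it stayed between -0.86 and -0.69 when each library was left out in turn (unadjusted p = 0.0632 and adjusted p = 0.982 by edgeR's quasi-likelihood test with Benjamini-Hochberg adjustment). NDUFB9, a further accessory subunit of the membrane arm, had 357 and 328 normalised reads in the summer libraries and a winter mean of 228, below both, and the 2 pairs of winter counts that give this mean do not agree on whether the seasons overlap.

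NDUFA2, an accessory subunit of the peripheral arm, was at 27.1 and 45.6 in the summer libraries and at 25.7 and 15.9 in the winter libraries. The nearest summer and winter values were less than 2 normalised reads apart. The log2 fold change was -0.77 with a standard error of 0.62. NDUFB2, in the membrane arm, lay the other way, at 68.3 and 67.2 in summer and 92.1 and 71.9 in winter, with a log2 fold change of 0.28 and a standard error of 0.36. The seasons overlapped for NDUFB2 once TMM factors were used.

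Complex II links the citric acid cycle to the chain and is encoded wholly in the nucleus. Its catalytic subunits were at nearly equal means in both seasons. SDHA, the flavoprotein, had 1331 in summer and 1353 in winter. SDHB, the iron-sulphur subunit, had 295 in summer and 264 in winter, and its summer libraries were at 288 and 302. The membrane anchors had the lowest ratios. SDHC was at 49.9 and 44.5 normalised reads in the summer libraries and at 31.7 in each winter library. The reads behind these values were 46 and 39 for summer, then 42 and 30 for winter. Both summer values lay above the winter values, and the log2 fold change was -0.57 with a standard error of 0.48 and a range over left-out libraries from -0.65 to -0.49.

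SDHD was at 32.5 and 10.3 in the summer libraries and at 9.81 and 8.46 in the winter libraries, from 30, 9, 13 and 8 reads. Only summer library A stood apart from the other libraries. The log2 fold change of -1.21 had a standard error of 0.84, and without summer library A it was -0.16. With library totals as the scaling, the seasons overlapped for SDHD.

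Complex III passes electrons from ubiquinol to cytochrome c. UQCRFS1, the Rieske iron-sulphur protein, had means of 1939 in summer and 1758 in winter. The core proteins UQCRC1 and UQCRC2, the large proteins on the matrix side of the complex, had 69.3 in summer and 51.1 in winter, and 218 and 158. UQCRC2 had the lowest ratio of the complex, a log2 of -0.47, with summer libraries at 240 and 197 and a winter mean below both. For UQCRC1 the libraries of a season differed more than the seasons did, with 52.1 and 86.6 in summer and 74.7 and 27.5 in winter. UQCRQ, a small accessory subunit, had the highest ratio, with 141 in summer and 162 in winter. UQCRH, the hinge protein, was listed at 0 in summer and had 5 and 1 reads in the winter libraries.

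Complex IV reduces oxygen to water on its mitochondrially encoded core, and its nuclear subunits surround and tune that core. COX4I1, the subunit at which ATP acts on the enzyme, had the lowest ratio of the complex, with a mean of 962 in summer and 647 in winter and a log2 ratio of -0.57. Several pairs of counts gave the mean of each season for COX4I1, so its libraries could not be separated. COX5A, a subunit on the matrix side, had the highest ratio, with 92.9 in summer and 114 in winter, and its winter mean lay between the summer libraries at 67.2 and 119.

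COX5B, COX6B1 and NDUFA4 had summer libraries close together and a winter mean below both. COX5B was at 322 and 329 in summer with a winter mean of 249, and COX6B1 was at 244 and 238 with a winter mean of 184. NDUFA4 was at 335 and 310 in summer with a winter mean of 234. These 3 genes had 2 possible pairs of winter counts, which do not agree on whether the seasons overlap.

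COX6C was at 98.7 and 99.2 in the summer libraries and at 89.8 and 67.7 in the winter libraries. COX7A2 was at 146 and 149 in summer and at 134 and 104 in winter. For both genes the summer libraries differed by less than 3 normalised reads, both winter libraries lay below them, and winter library B was the lowest. Their log2 fold changes were -0.32 with a standard error of 0.35 and -0.31 with a standard error of 0.33 (unadjusted p = 0.388 and 0.370, each with adjusted p = 0.982 by edgeR's quasi-likelihood test with Benjamini-Hochberg adjustment). With library totals as the scaling, the seasons overlapped for both. COX6A1 had a similar ratio of means, with 216 in summer and 174 in winter, but its winter libraries were at 244 and 104, on either side of the summer libraries at 201 and 231.

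Several subunits of complex IV have paralogues that in other mammals are used in different tissues. COX4I2, which is tied to the response to low oxygen, was at 7.76 in summer and 9.96 in winter, under the filter, against the lower winter mean of COX4I1. COX7A1, the heart and muscle form, had 14.9 in summer and 15.6 in winter, from 17, 10, 23 and 13 reads, while COX7A2 and the supercomplex factor COX7A2L had lower winter means, the latter at 441 and 358. COX8B had 3 and 0 reads in summer libraries A and B, and 9 and 5 in those of winter, while COX8A had means of 391 in summer and 326 in winter. NDUFA4L2, a relative of NDUFA4 that is induced by low oxygen, had 22.6 in summer and 25.6 in winter, with libraries at 28.2 and 17.1 in summer and 27.9 and 23.3 in winter that overlapped. By mean, COX4I2, COX7A1, COX8B and NDUFA4L2 were each higher in winter, and COX4I1, COX7A2, COX8A and NDUFA4 lower, but the counts behind the former were small. COX7B was at 203 in summer and 220 in winter.

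**Figure D4:**
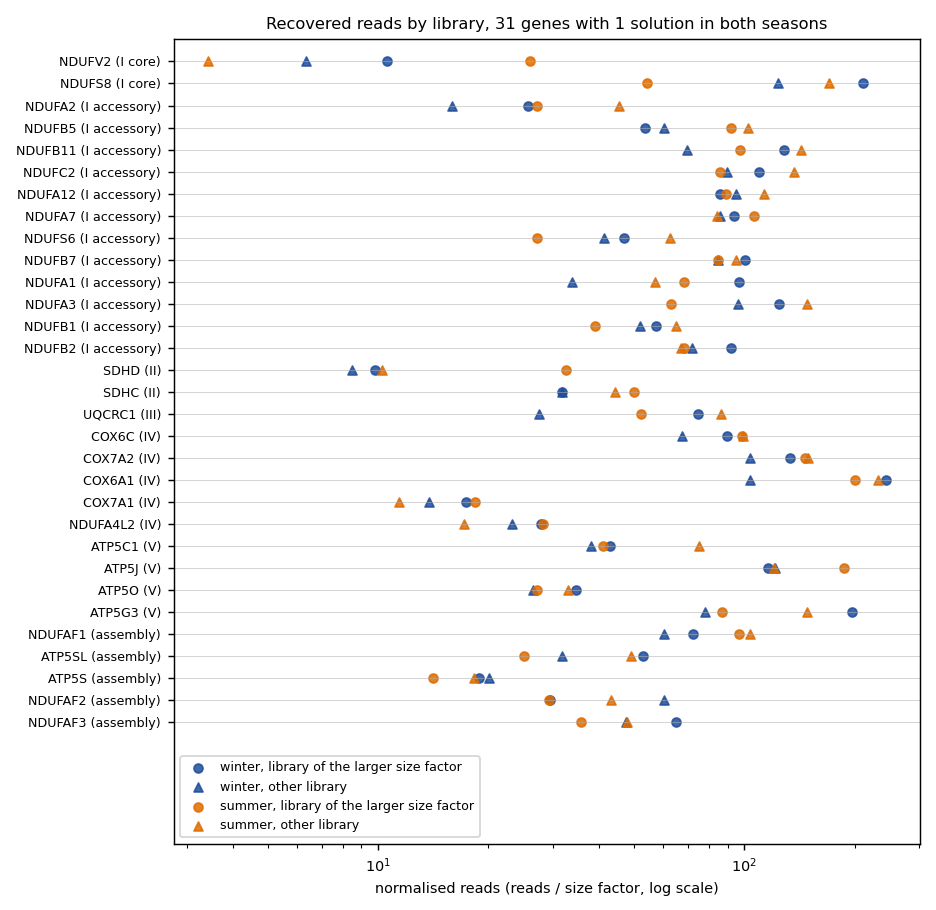
Normalised reads in each of the 4 libraries, on a log axis, for the 31 members with a single solution in both seasons, with summer in orange, winter in blue, circles for library A (the larger size factor) and triangles for library B. The summer and winter points of NDUFB5 are separate, from 53.6 to 60.3 in winter and from 92.2 to 102.6 in summer, whereas those of NDUFS8 are mixed.

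Complex V is a rotary enzyme whose catalytic head is made of alpha and beta subunits. ATP5A1 (alpha) had means of 1023 in summer and 1055 in winter, and ATP5B (beta) had 1417 and 1323. ATP5C1, the gamma subunit of the central stalk, had the lowest ratio, with 58.2 in summer and 40.5 in winter and a log2 ratio of -0.52, and ATP5E, the epsilon subunit of the same stalk, had 424 and 315. The libraries of ATP5C1 were at 41.2 and 75.2 in summer and at 43.0 and 38.1 in winter, so the seasons overlapped. ATP5G1, ATP5G2 and ATP5G3 encode the same mature ring subunit with different import sequences, and they did not lie together. ATP5G2 had 461 in summer and 369 in winter, ATP5G1 had 193 and 181, and ATP5G3 had the highest ratio of the complex with 117 and 138. For ATP5G3 winter library A was at 197 and winter library B at 78.3, on either side of the summer libraries at 86.8 and 148.

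Among the factors that are not subunits, NDUFAF1, which helps to build the membrane arm of complex I, was at 96.5 and 104 normalised reads in the summer libraries and at 72.4 and 60.3 in the winter libraries. Both summer values lay above both winter values. The log2 fold change was -0.59 with a standard error of 0.35 and a range over left-out libraries from -0.73 to -0.47 (unadjusted p = 0.134 and adjusted p = 0.982 by edgeR's quasi-likelihood test with Benjamini-Hochberg adjustment). NDUFAF3, a further complex I assembly factor, had the highest ratio of this group, with 41.8 in summer and 56.2 in winter. ATP5S, a coupling factor of the ATP synthase, was at 14.1 and 18.2 in summer and at 18.9 and 20.1 in winter, from 13, 16, 25 and 19 reads.

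Over the 31 resolved members, 2, ATP5S and NDUFB2, had both winter libraries over both of summer, as 13.3% of all resolved symbols did. The reverse held for 7, COX6C, COX7A2, NDUFA2, NDUFAF1, NDUFB5, SDHC and SDHD, as it did for 17.2% of all resolved symbols. The remaining 22 overlapped. With 2 libraries against 2, an exact permutation test of a single gene cannot go below 0.33. With TMM factors 9 members did not overlap, as with the size factors, but ATP5C1 and NDUFAF3 replaced NDUFB2 and SDHD. With library totals there were again 9, of which 4 had winter above and 5 had summer above. The shares of all resolved symbols were not computed under TMM factors or library totals, so these counts have no background. Library totals also raised the median log2 fold change of all resolved symbols by 0.10.

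A fit with edgeR's quasi-likelihood test over all 7628 resolved symbols called none of the 31 members past 2-fold with an unadjusted p under 0.05, where 1.68% of all symbols were called, and none past an adjusted p of 0.05, where 0% of all symbols were. The count of members with an unadjusted p under 0.05 was 0, and the smallest adjusted p of a member was 0.982. The exact test of edgeR and DESeq2 called 0 members as well. Over all 7628 symbols they called 97 and 60 by the 2-fold rule, and 1 each past an adjusted p of 0.05. The common biological coefficient of variation was 0.460. The median fitted log2 fold change was -0.09 over the 31 members and -0.11 over all resolved symbols. It was -0.31 without winter library A and 0.10 without winter library B, so the sign of the members' median rested on 1 winter library. Without summer library B, the log2 fold change was 1.63 for NDUFS8, -1.58 for NDUFV2 and -1.81 for SDHD, and the median over all resolved symbols was 0.16.

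Other genes that serve the chain were read from the same season means. Of 38 listed assembly factors and cytochrome genes, 25 passed the filter, at a median log2 ratio of 0.05. The mean was higher in winter for 15 and lower for 10, where 53.8% of all symbols were lower. Past 1.5-fold, 4 of the 25 were higher in winter and 1 was lower, against 10.1% and 12.2% of all symbols, and 80.0% lay within 1.5-fold, against 77.7%. BCS1L, needed to insert the Rieske protein into complex III, had 20.6 in summer and 38.5 in winter, and TTC19, another complex III factor, had 159 and 239. CYCS, the cytochrome c itself, had 25.4 and 42.7, and TACO1, a translational activator for a mitochondrially encoded complex IV subunit, had 58.6 and 89.6. TMEM70, an assembly factor of complex V, was lower in winter, with 59.2 in summer and 33.8 in winter.

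Of 16 genes for mitochondrial biogenesis and mitochondrial DNA upkeep, 14 passed the filter, with a median of 0.16. By mean, 9 were higher in winter and 5 lower, where 53.8% of all symbols were lower. Past 1.5-fold, 5 of the 14 were higher and 0 lower, against 10.1% and 12.2% of all symbols. They were the nuclear receptors ESRRA (49.9 in summer and 86.7 in winter) and ESRRG (24.1 and 37.4), the coactivator PPRC1 (72.7 and 117), the RNA methyltransferase TFB1M (35.5 and 56.1) and the mitochondrial RNA polymerase POLRMT (158 and 240). The 10 carriers and porins had a median of -0.11, with VDAC1, the main porin of the outer membrane, at 240 in summer and 368 in winter. The phosphate carrier SLC25A3, which supplies the ATP synthase, had 90.4 in summer and 52.2 in winter, and the uncoupling protein UCP2 had 23.5 and 12.5. These values are season means and were not tested.

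Reads that align to more than 1 place were not counted on gene models by the authors' counting. Several of these genes have processed copies in other mammals, and gene models in a draft assembly can be split, so the level of a single gene is uncertain. How many reads were lost in this way was not measured.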

How the data were processed

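RNA-seq of the supraoptic nucleus was deposited as 4 files of raw counts per gene model, 2 from winter and 2 from summer, grouped by the season in their labels. The authors aligned reads with TopHat to their own dromedary assembly and counted them with HTSeq, as the submitters' processing notes and the methods state. Versions are not given in the sources used here. The tally entries of HTSeq stayed out of the totals. Gene models in the counts carry no names, so the count files served for depth only. For named genes, the authors deposited a signal for each symbol and season, namely the average over its libraries after scaling with DESeq. The same table holds the authors' own edgeR fold changes and p-values, which were not used. No column of values was left without a sample or group (0 columns).

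The members and gene lists were chosen with earlier results of these data known. Named genes were members past 1.5-fold, the highest and lowest of each complex, those past 1.5-fold whose libraries did not overlap, core subunits and paralogue sets. A part of the rule that needed transcript lengths could not be applied, and the values of 1 member are not reported here. COX5B, COX6C, ATP5E, ATP5S, NDUFB2 and UQCRH were named after their values were seen.

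Whole reads were recovered from the means by solving each for 2 whole numbers, with the printed 6 digits as the tolerance. Every symbol had at least 1 solution, and 9870 had exactly 1 in both seasons. Symbols with a mean of at least 10 were fitted with edgeR 4.0.16 in R 4.3.3 (glmQLFit, glmQLFTest, season as the only term) and adjusted by the Benjamini-Hochberg method over all 7628. The alternatives were edgeR's exact test, DESeq2 1.42.0, TMM, RLE and total scaling, other filters and fold thresholds, and leaving out each library. The setting of the winter mean against the summer libraries was chosen after the data were examined. Scripts (Python 3.11.15, pandas 2.3.3, numpy 2.4.6, matplotlib 3.10.9) were tested on simulated data.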

Additional observations from a re-analysis of the deposited data

How the results depend on the processing

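The count of 7 members past 1.5-fold by season means lay between 5 and 9 with season totals, centring on all symbols, a mean of at least 10 in both seasons, no filter, a pseudocount of 1, or no assembly factors. It was 4 where the higher mean had to reach 50 and 1 past 2-fold, as fewer genes can pass by construction. The median over the members lay between -0.13 and -0.07 over 7 alternatives. That of complex II was -0.07 with a mean of at least 50, where 2 genes were left. On recovered reads, the count of members past the 2-fold rule was 0 under every test, scaling and filter tried and 0 to 3 when each library was left out. With all libraries kept, the count past an adjusted p of 0.05 was 0 under every test, scaling and filter tried. This does not extend to the fits with a library left out. Where a library was left out, 1 library remained in its season, so only effect sizes are given for those fits. The count past 1.5-fold on recovered reads was 5, with 0 higher and 5 lower in winter, and the balance of directions turned with the library left out. The share of all resolved symbols past 1.5-fold was not computed, so this count and its balance have no background and describe the members only. The members' median log2 fold change was -0.31 without winter library A and 0.10 without winter library B. It was -0.20 without summer library A and -0.006 without summer library B. Over all resolved symbols the medians were -0.18, -0.11, -0.16 and 0.16 in the same order, so the background moved as well. The cause was not tested. Season totals put 4 of 4 complex II and 13 of 15 complex V genes lower in winter, and centring put 13 of 31 complex I and 10 of 15 complex V genes lower. Leaving out a library assumes that the lone library of its season varies like the others. No paired analysis was possible because the winter and summer tissues came from different animals, slaughtered on different dates. The replicate numbers do not mark pairs, and the recovered libraries carry none. SDHD, NDUFV2 and UQCRH rested on few reads.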

Other observations

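The mitochondrial genome encodes some subunits of complexes I, III, IV and V, and 11 of its genes were listed under MT- symbols. They were looked at after their values were seen. MT-CO2, a catalytic subunit of complex IV, had 70 and 98 reads in summer libraries A and B and 179 and 317 in winter libraries A and B, with season means of 93.8 and 235. The seasons did not overlap, with winter above. The log2 fold change was 1.32 with a standard error of 0.49 (unadjusted p = 0.0296 and adjusted p = 0.982 by edgeR's quasi-likelihood test with Benjamini-Hochberg adjustment), and it lay between 0.53 and 1.84 with a library left out. The nuclear subunits of the same complex had a median log2 ratio of -0.31 by season means, and the difference from MT-CO2 was not tested. The other mitochondrial genes were at low means, MT-ATP6 at 24.2 in summer and 20.9 in winter, MT-CO3 at 19.0 and 14.0, MT-ND4 at 18.5 and 16.5, MT-ND5 at 14.2 and 11.5 and MT-ND1 at 8.47 and 10.4, although such transcripts are abundant in brain. MT-CO1, MT-CYB, MT-ND3, MT-ND4L and MT-ND6 were below a mean of 10 in both seasons. Whether these symbols hold the whole mitochondrial transcripts was not tested.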
